A study of Mus musculus with 9 samples.

Results

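The extracellular matrix genes described here are 57 genes for matrix proteins other than collagens, for the enzymes that crosslink or cut the matrix, and for ligands stored in it. They were chosen by name as rows of a table of 30128 genes and fall into 8 groups by role. They are small leucine-rich proteoglycans, large and basement membrane proteoglycans, elastic fibre and microfibril proteins, latent TGF-beta binding proteins with the TGF-beta ligands, matricellular glycoproteins, laminins with nidogens, lysyl oxidases, and proteases with their inhibitors. Fap and Lrrc15, membrane proteins of fibroblasts, were counted with the last group. Their messenger RNA was measured by sequencing in 9 libraries of mouse left ventricle, in 3 groups of 3. Control hearts were wild type, and their labels name no virus. The remaining 6 libraries came from db/db mice, obese and diabetic animals that lack a working leptin receptor. In 3 of them the vector was an adeno-associated virus of serotype 9 with no insert (null virus). In the other 3 the same serotype delivered USP28, an enzyme that removes ubiquitin from proteins, driven by the cTnT promoter of cardiomyocytes (USP28 virus). Strain, sex, age and time after injection are not in the labels. No group of db/db mice without virus and no wild-type group with virus was in the series, so genotype and virus cannot be told apart against control. The series asks what more USP28 does in the diabetic heart.

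Most cardiac matrix is made by fibroblasts, while endothelial cells, smooth muscle cells and cardiomyocytes make basement membrane. Collagen and elastic fibres gain their strength when lysyl oxidases turn lysines into reactive groups that form crosslinks. Small proteoglycans coat the fibrils and set their width, microfibrils hold latent TGF-beta in store, and laminins tie each cardiomyocyte to the membrane around it. Matrix metalloproteinases cut these proteins, and the inhibitors named TIMPs hold the proteases back.

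The libraries held 35970332 to 56497662 counted reads, and the 57 genes took 0.243% to 0.336% of them in 8 libraries and 0.181% in null-virus replicate 1. That library stood apart. Its log2 values lay on average 0.334 from its group's means, against 0.144 to 0.214 in the other 8, and it was the lowest of the null-virus libraries for 39 of 52 tested genes. USP28-virus replicate 1 had the atrial genes Myl7 at 90.5 and Myl4 at 51.0, against at most 4.7 and 3.43 in any other library (scaled RPKM, reads per kilobase and per unit of sequencing depth, after scaling between libraries). Usp28 itself was at 12.5, 13.3 and 13.7 scaled RPKM in control replicates 1, 2 and 3, at 10.1, 7.57 and 7.77 with null virus, and at 9.88, 11.4 and 11.2 with USP28 virus. It was lower with null virus than in control (log2 -0.64, limma adjusted p = 0.00871) and did not pass between the viruses (log2 0.36, adjusted p = 0.2). Exact two-sided permutation tests of it gave p = 0.1 for null virus against control and p = 0.2 between the viruses, where 0.1 is the smallest that 3 against 3 allows. The sources used here do not say whether reads of the viral sequence were counted under Usp28. The labels do not say that libraries of a group came from separate animals, so the spread behind each p-value is that between these samples and may be technical.

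Sparcl1, a secreted relative of the collagen-binding protein Sparc, was the most abundant of the matrix genes per unit of length. It made up 32.2% to 40.3% of their summed level, at 149 to 267 scaled RPKM. Dcn, the proteoglycan decorin, followed at 46.1 to 70.0, Lamb2, a laminin beta chain, at 43.5 to 67.2, and Sparc at 29.9 to 44.7. Dcn and Lamb2 overlapped in level, so their order was not fixed across libraries. The summed level of all 57 genes was 552, 571 and 518 in control, then 461, 600 and 570 with null virus, and then 673, 662 and 624 with USP28 virus. These sums lay apart only for USP28 virus, whose 3 libraries were above the other 6. Sparcl1 alone was at 180 to 210 in control, 149 to 217 with null virus and 244 to 267 with USP28 virus. Of the log2 differences of the 52 tested genes between USP28 virus and control, 27 were positive and 25 negative, with a median of 0.016. In tissue RNA, fewer cells of a type and less RNA per cell cannot be told apart. Of the 57 genes, 52 reached 0.5 RPKM in at least 3 libraries and were tested, and 47 reached it in all 9. Vcan, the large hyaluronan-binding proteoglycan versican, reached it in the 3 control libraries and in no other, so it had to differ to be tested. Within-group scatter was small for most of them, with a median coefficient of variation of 11.9% in control, higher with null virus at 18.7% and lower with USP28 virus at 8.82%. The widest was that of Comp, a pentameric cartilage matrix protein, at 116% in control.

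**Figure D1:**
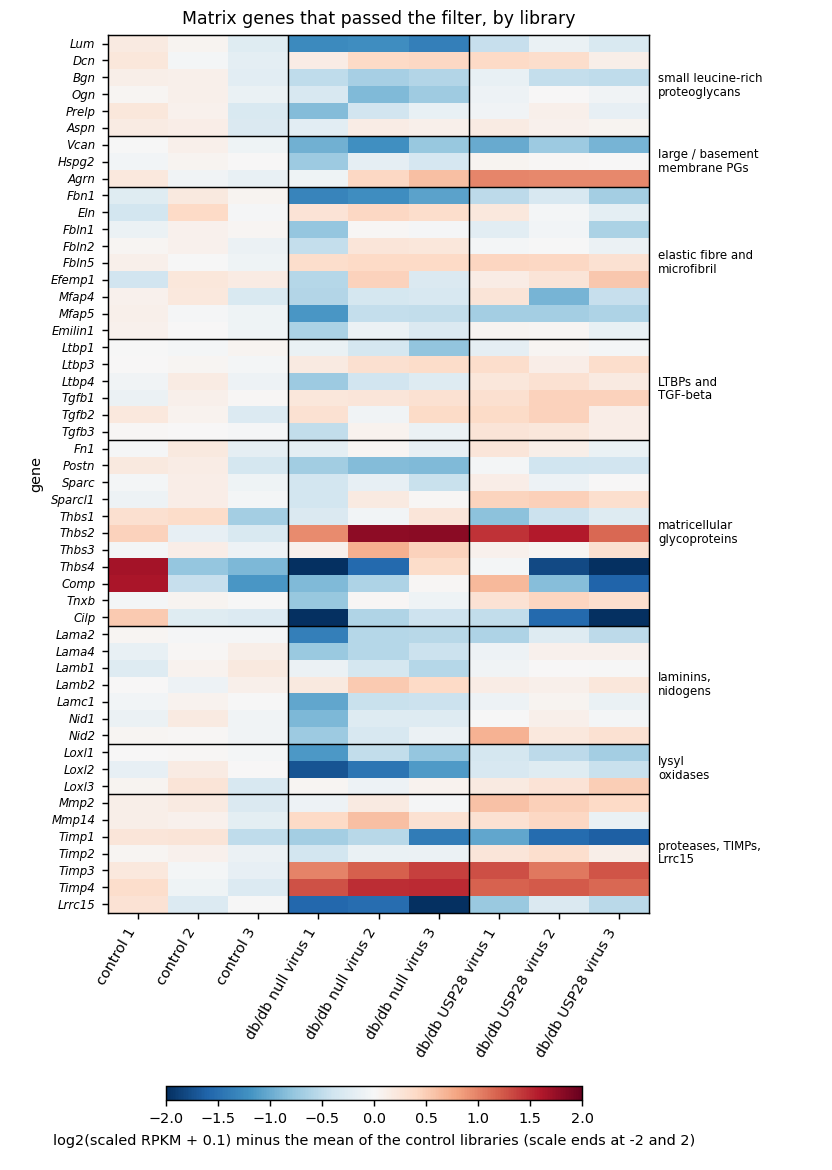
Heat map of the 52 tested matrix genes (rows, grouped by role) in the 9 libraries (columns): colour is log2(scaled RPKM + 0.1) minus the mean of the 3 control libraries, red above and blue below, with the scale ending at -2 and 2. Lum, Loxl2, Lrrc15 and Fbn1 are blue in the 3 null-virus columns and paler with USP28 virus, while Timp3, Timp4 and Thbs2 are red in all 6 db/db columns.

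With null virus the db/db hearts had less RNA than control hearts for 14 of the matrix genes, Vcan among them, and more for 5. Lower were Lum, the fibril-binding proteoglycan lumican, Fbn1, the microfibril protein fibrillin, the crosslinking enzymes Loxl1 and Loxl2, 3 laminin chains, and Lrrc15, a leucine-rich membrane protein of activated fibroblasts. Higher were the protease inhibitors Timp3 and Timp4, Thbs2, a thrombospondin that restrains vessel growth and matrix cutting, the elastic fibre protein Fbln5, and Lamb2. Together 19 of 52 tested genes passed (36.5%, limma, adjusted p under 0.05), against 22.3% of all 14104 tested genes (10.4% higher, 11.9% lower). Without Vcan, which was tested only because it is high in control, 18 of 51 passed (35.3%). There was no overlap between groups for 31 of the 52 (59.6%), against 41.6% of all genes. The median log2 difference was -0.335 over the 52 genes and 0.015 over all genes, and -0.204 over the 52 without null-virus replicate 1. Of the 19, 8 passed in each of 18 other settings, namely Lum, Timp4, Timp3, Lrrc15, Loxl2, Fbn1, Thbs2 and Loxl1. The count of 19 became 9 without control replicate 2 (17.6%, against 10.3% of all genes) and 11 in a fit of these 2 groups alone (21.2%, against 11.8%). It became 12 without control replicate 1 (24.0%, against 15.1% of all genes) or 3 (23.5%, against 10.5%).

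Among the 6 small leucine-rich proteoglycans, 3 fell and none rose (50% passed, against 22.3% of all genes). Lum (chromosome 10, 97565501 to 97572703) was at 5.15, 4.70 and 3.80 scaled RPKM in control replicates 1, 2 and 3, at 1.80, 1.86 and 1.68 with null virus, and at 3.25, 4.13 and 3.64 with USP28 virus. The null-virus libraries were the 3 lowest of the 9, and the other groups overlapped. Lum fell by 1.30 on the log2 scale from control to null virus (SE 0.137, adjusted p = 0.000951). Ogn, the proteoglycan osteoglycin, fell from 8.24 ± 0.676 to 5.31 ± 1.1 (mean ± SD, n = 3; log2 -0.64, adjusted p = 0.0149). Bgn, the decorin relative biglycan, fell from 11.1 ± 1.37 to 7.34 ± 0.398 (log2 -0.59, adjusted p = 0.0151). Groups did not overlap for Ogn or Bgn, but neither passed without control replicate 2, where adjusted p reached 0.0612 and 0.0629. Dcn was at 53.0 ± 7.94 in control and 66.1 ± 6.63 with null virus and did not pass (log2 0.32, 95% interval 0.01 to 0.64, adjusted p = 0.126). Nor did Prelp, which anchors basement membrane to connective tissue (log2 -0.46, adjusted p = 0.124), or Aspn, the proteoglycan asporin (log2 0.02, 95% interval -0.32 to 0.36).

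Of the 3 large and basement membrane proteoglycans, Vcan was under the test's threshold, but it entered the test through the control libraries alone, so its p supports nothing. It was at 0.581, 0.632 and 0.543 in control, at 0.253, 0.191 and 0.303 with null virus, and at 0.242, 0.315 and 0.259 with USP28 virus. Each db/db library was below each control library, on 110 to 470 reads (null virus against control log2 -0.98, adjusted p = 0.0254, and 0.0574 without null-virus replicate 2). Hspg2, the heparan sulfate proteoglycan perlecan, was at 11.7 ± 0.406 in control and 8.86 ± 1.66 with null virus and missed the threshold (log2 -0.41, adjusted p = 0.0521). Agrn, the proteoglycan agrin that binds dystroglycan, was at 2.67 ± 0.357 and 3.38 ± 0.804, with groups that overlapped (log2 0.31, adjusted p = 0.228).

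Elastic fibre and microfibril genes split, with Fbn1 and Mfap5 lower and Fbln5 higher among 9 (33.3% passed, against 22.3% of all genes). Fbn1 (chromosome 2, 125300594 to 125507993) was at 3.29, 4.50 and 4.05 in control, at 1.50, 1.59 and 1.82 with null virus, and at 2.7, 3.12 and 2.40 with USP28 virus. The 3 groups did not overlap, with USP28 virus in the middle. Fbn1 fell by 1.21 on the log2 scale with null virus (SE 0.149, adjusted p = 0.00162). Mfap5, a small protein bound to fibrillin microfibrils, fell from 1.37 ± 0.0949 to 0.816 ± 0.225 (log2 -0.71, adjusted p = 0.0283). Fbln5, which deposits elastin on microfibrils, rose from 0.900 ± 0.0696 to 1.20 ± 0.0221 (log2 0.38, adjusted p = 0.0401). Mfap5 did not pass without control replicate 1, 2 or 3 (adjusted p up to 0.0815). Fbln5 passed in 5 of 18 other settings, and of the 9 that leave out a library only without null-virus replicate 1 (adjusted p up to 0.141). Elastin itself, Eln, was at 1.94 ± 0.544 and 2.44 ± 0.133 and did not pass (log2 0.35, adjusted p = 0.214). The other 5, Fbln1, Fbln2, Efemp1, Mfap4 and Emilin1, had log2 differences of -0.41 to 0.00.

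In the latent TGF-beta group 1 of 6 tested genes fell (16.7%, against 22.3% of all genes that passed). It was Ltbp4, which holds latent TGF-beta on elastic fibres. Its level was 7.79 ± 0.831 in control and 5.67 ± 0.933 with null virus (log2 -0.46, adjusted p = 0.0404). It passed in 8 of 18 other settings, and not without any 1 control or USP28-virus library or null-virus replicate 2 (adjusted p up to 0.136). Tgfb1, the main TGF-beta ligand (chromosome 7, 25687002 to 25705077), was at 1.57, 1.85 and 1.75 in control, at 2.03, 2.05 and 2.14 with null virus, and at 2.17, 2.41 and 2.40 with USP28 virus. No library of 1 group lay within another group, with control lowest. The difference between null virus and control did not pass (log2 0.26, adjusted p = 0.102). Ltbp3, Ltbp1, Tgfb2 and Tgfb3 had log2 differences of 0.29, -0.42, 0.21 and -0.18 and did not pass.

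Among 11 tested matricellular genes, Thbs2 rose and Postn fell (18.2% passed, against 22.3% of all genes). Thbs2 (chromosome 17, 14665500 to 14694262) was at 3.45, 2.22 and 2.0 in control, at 4.89, 8.80 and 8.95 with null virus, and at 6.94, 7.64 and 5.62 with USP28 virus. All 6 db/db libraries were above the highest control library, with null-virus replicate 1 the lowest of the 6. Thbs2 rose by 1.51 on the log2 scale with null virus (SE 0.272, adjusted p = 0.00665). Postn, the fibroblast protein periostin, fell from 3.27 ± 0.672 to 1.80 ± 0.137 (log2 -0.81, adjusted p = 0.0124, and 0.053 without control replicate 2). Fn1, fibronectin, the adhesive glycoprotein on which other fibres assemble, was at 3.29 ± 0.452 and 3.03 ± 0.286 (log2 -0.11, 95% interval -0.42 to 0.21). Sparc and Sparcl1 did not pass either, at log2 -0.33 and -0.06. Comp and Thbs4, a thrombospondin of tendon and stressed heart, varied widely between libraries of a group. Control replicate 1 had Thbs4 at 5.42, against 0.917 and 0.828 in the other control libraries, and Comp at 1.74, against 0.333 and 0.165. Their log2 differences of -1.07 and -0.49 had 95% intervals of -3.12 to 0.97 and -2.24 to 1.26. Cilp, a cartilage matrix protein also made by cardiac fibroblasts, was at 0.642, 2.23 and 2.57 with null virus and 2.82 to 5.0 in control (log2 -1.09, adjusted p = 0.181, and log2 -0.50 without null-virus replicate 1). Thbs1, Thbs3 and Tnxb, the tenascin of loose connective tissue, had log2 differences of -0.04, 0.41 and -0.27.

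Laminins, trimers of an alpha, a beta and a gamma chain, moved unequally. Of 7 laminin and nidogen genes 3 fell, Lama2, Lama4 and Lamc1, and Lamb2 rose (57.1% passed, against 22.3% of all genes). Lama4, the alpha chain of vessel basement membrane (chromosome 10, 38965515 to 39110188), was at 3.62, 4.05 and 4.37 in control, at 2.35, 2.67 and 2.96 with null virus, and at 3.74, 4.23 and 4.24 with USP28 virus. The null-virus libraries were the 3 lowest, and the other groups overlapped (null virus against control log2 -0.58, adjusted p = 0.0113). Lamc1, the common gamma chain, fell from 17.6 ± 0.754 to 11.5 ± 2.59 (log2 -0.64, adjusted p = 0.0244). Lama2, the alpha chain of the muscle cell's own membrane, fell from 3.73 ± 0.109 to 2.12 ± 0.641 (log2 -0.84, adjusted p = 0.0249). Lamb2 rose from 46.9 ± 3.28 to 60.8 ± 6.96 (log2 0.37, adjusted p = 0.0416), while the other beta chain, Lamb1, was at 8.91 ± 1.42 and 6.99 ± 1.09 (log2 -0.35, adjusted p = 0.118). Nid1 and Nid2, which link laminin to collagen, had log2 differences of -0.47 and -0.38 and did not pass. Null-virus replicate 1 was the lowest library of the 9 for Lama2, Lamc1, Nid1 and Nid2. In the fit without it 32.0% of all genes passed, and so did Lama2 and Lamc1, at smaller log2 differences of -0.56 and -0.43. Without any 1 control library they did not, with adjusted p up to 0.0737 and 0.0847, nor did Lama4 without control replicate 3 (0.0504). Lamb2 passed in 6 of 18 other settings, and of the 9 that leave out a library only without null-virus replicate 1 (adjusted p up to 0.162).

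**Figure D2:**
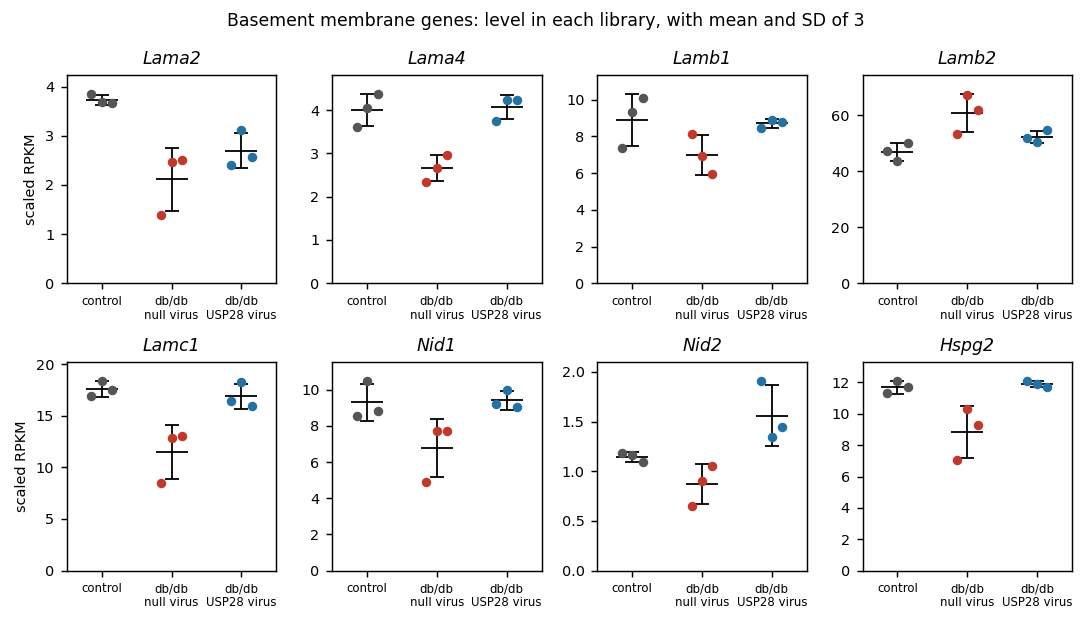
Scaled RPKM (y axis) of the laminin chains Lama2, Lama4, Lamb1, Lamb2 and Lamc1, the nidogens Nid1 and Nid2, and Hspg2 in each library (points), by group, with the mean and SD of 3 (bars). Lamb2 is highest with null virus, at 53.4 to 67.2, while Lama2, Lama4 and Lamc1 are below control there.

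Of the lysyl oxidases, 2 of 3 tested genes fell (66.7%, against 22.3% of all genes that passed). Loxl2 (chromosome 14, 69609068 to 69695834), which oxidises collagen lysines, was at 2.26, 2.86 and 2.55 in control, at 0.696, 0.865 and 1.11 with null virus, and at 2.03, 2.14 and 1.85 with USP28 virus. The null-virus libraries lay below the others, and the USP28-virus libraries just below control. Loxl2 fell by 1.44 on the log2 scale with null virus (SE 0.166, adjusted p = 0.00133). Loxl1, the enzyme of elastic fibre renewal (chromosome 9, 58287738 to 58313186), was at 4.92, 4.96 and 4.77 in control, at 2.15, 3.44 and 2.82 with null virus, and at 3.80, 3.36 and 3.01 with USP28 virus. Each db/db library was below control, and the virus groups overlapped (null virus against control log2 -0.80, SE 0.163, adjusted p = 0.0107). Loxl3 was at 0.815 ± 0.178 and 0.806 ± 0.0557, a log2 difference of 0.00 with a 95% interval of -0.39 to 0.39. Lox, the founding enzyme of the family, was under the filter and not tested, at 0.260, 0.480 and 0.334 in control, at 0.332, 0.533 and 0.627 with null virus, and at 0.447, 0.303 and 0.287 with USP28 virus. The summed level of the 4 enzymes was 8.28, 9.28 and 8.28 in control, then 4.01, 5.58 and 5.40 with null virus, and then 7.20, 6.79 and 6.32 with USP28 virus. These sums did not overlap between groups and were carried by Loxl1 and Loxl2.

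**Figure D3:**
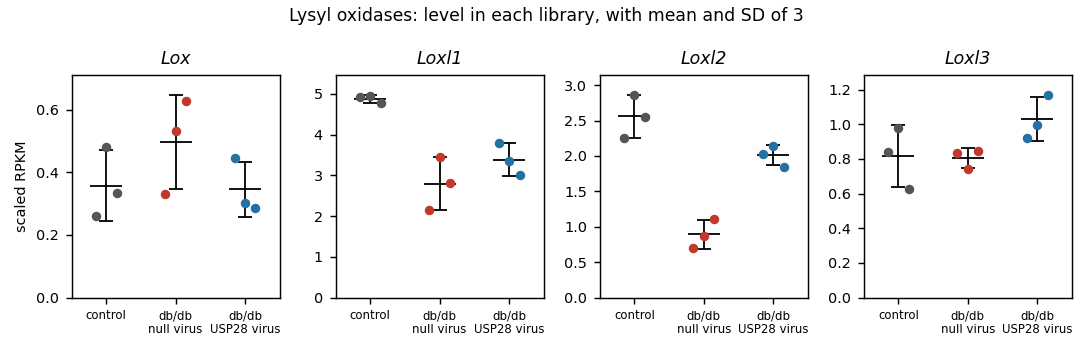
Scaled RPKM (y axis) of the 4 lysyl oxidase genes in each library (points), by group, with the mean and SD of 3 (bars). Loxl1 and Loxl2 are lower in the null-virus libraries than in control, while the groups overlap for Lox, which was not tested, and for Loxl3 between control and null virus.

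Among proteases and inhibitors, Timp3 and Timp4 rose and Lrrc15 fell, of 7 tested (42.9% passed, against 22.3% of all genes). Timp3, the inhibitor that stays bound to the matrix (chromosome 10, 86300372 to 86349506), was at 18.5, 15.6 and 14.2 in control, at 32.0, 36.9 and 41.4 with null virus, and at 39.2, 33.5 and 38.6 with USP28 virus. All db/db libraries were above control, and the virus groups overlapped. Timp3 rose by 1.18 on the log2 scale with null virus (SE 0.135, adjusted p = 0.00128). Timp4, the inhibitor with most of its expression in heart (chromosome 6, 115241892 to 115252205), was at 3.03, 2.21 and 1.91 in control, at 5.78, 6.68 and 6.79 with null virus, and at 5.40, 5.60 and 5.33 with USP28 virus. Control was lowest and null virus highest, with no overlap between groups (null virus against control log2 1.41, SE 0.156, adjusted p = 0.00112). Lrrc15 (chromosome 16, 30269302 to 30283256) was at 4.28, 2.85 and 3.44 in control, at 1.11, 1.15 and 0.791 with null virus, and at 2.04, 2.82 and 2.37 with USP28 virus. The groups did not overlap, though the highest USP28-virus library came close to the lowest control library. Lrrc15 fell by 1.70 on the log2 scale with null virus (SE 0.195, adjusted p = 0.00132). Timp1, the inducible inhibitor (chromosome X, 20870166 to 20874735), was at 1.95, 1.96 and 1.12 in control, at 0.975, 1.08 and 0.554 with null virus, and at 0.738, 0.492 and 0.458 with USP28 virus. Each db/db library was below each control library, on 18 to 97 reads, and null virus against control did not pass (log2 -0.88, adjusted p = 0.0604). Timp2, Mmp2, a gelatinase, and Mmp14, the membrane protease that activates it, had log2 differences of -0.20, 0.02 and 0.44 and did not pass.

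**Figure D4:**
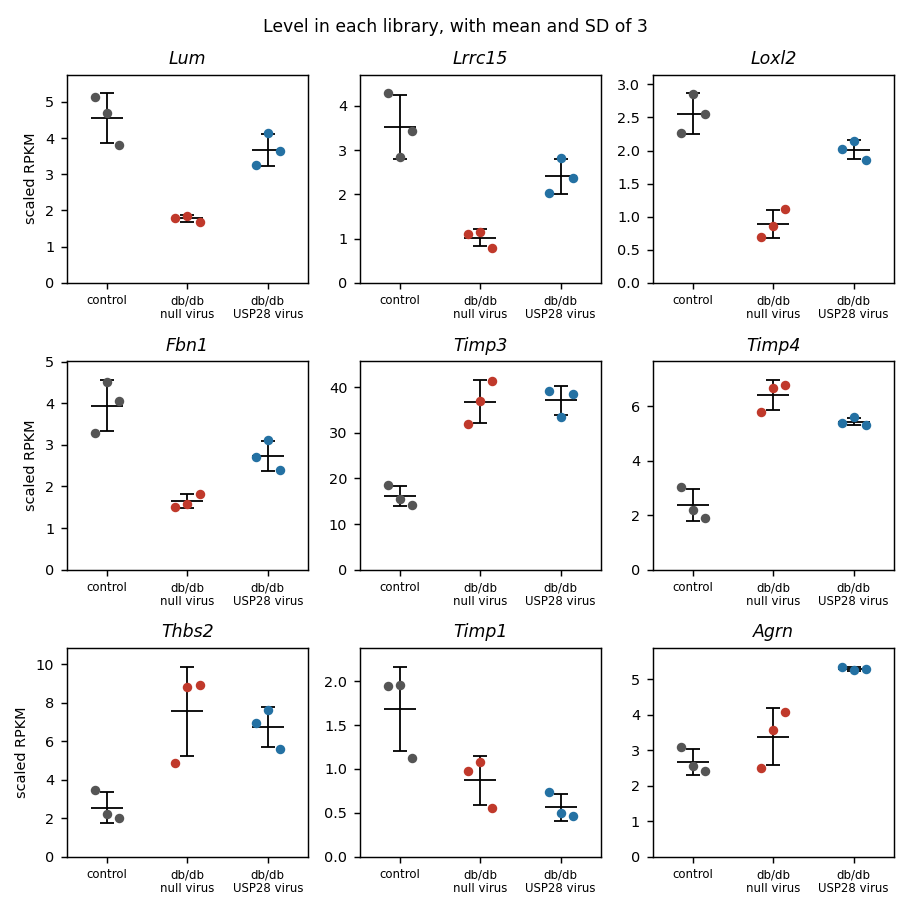
Scaled RPKM (y axis) of 9 matrix genes in each library (points), by group, with the mean and SD of 3 (bars). Lum, Lrrc15, Loxl2 and Fbn1 are lowest with null virus, Timp3, Timp4 and Thbs2 are above control in all 6 db/db libraries, and Agrn is highest with USP28 virus, at 5.25 to 5.34.

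Timp3 and Timp4 lie within the spans of synapsin genes on the opposite strand, and annotated exons overlap. Timp3 shares 1733 exonic bases with Syn3, and Syn3 was at 5.90, 4.79 and 4.23 in control, at 12, 12.1 and 12.7 with null virus, and at 12.3, 10.0 and 12.3 with USP28 virus. Syn3 was higher in the same libraries as Timp3 (null virus against control log2 1.30, adjusted p = 0.000949). Timp4 shares 90 exonic bases with Syn2, at 0.178 to 1.0 (log2 1.16, adjusted p = 0.0526). Fbn1 shares 2442 exonic bases with Gm9913, and Loxl2 shares 301 with Gm27177, both on the opposite strand. Gm9913 was at 0.684, 0.978 and 1.09 in control, at 0.274, 0.360 and 0.528 with null virus, and at 0.665, 0.713 and 0.626 with USP28 virus. It was thus lowest with null virus, as Fbn1 was. Gm27177 was at 0.891 to 1.27 over all 9 libraries. Loxl2 also shares 7 exonic bases with Mir6950, on the same strand, which was at 11.7, 16.5 and 12.3 in control, at 0.912, 4.13 and 3.98 with null virus, and at 9.23, 11 and 12.3 with USP28 virus. Mir6950, like Loxl2, was lowest with null virus. In all, 22 of the 57 genes share exonic bases with another annotated gene. The libraries kept strand by the labels' protocol, but the sources used here do not give the strand setting of the count, so reads of such partners cannot be told apart.

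Promoters are shown for the 5 genes of largest log2 difference, among those past the threshold between null virus and control that have a window, so that the start sites of genes that fell and rose can be compared. Each run holds the 250 bases before the start site that RefSeq gives on GRCm38.p6, on the gene's own strand. Capitals mark matches, on either strand, to 4 motifs. These are CAGAC (reverse complement GTCTG), bound by the SMAD proteins of TGF-beta signalling, TGANTCA, the AP-1 site, CATTCC (reverse complement GGAATG), the TEAD site, and TATAAA (reverse complement TTTATA), the TATA box. No matches overlapped in these windows. Lrrc15 is at chr16:30283255-30283504 and Fbn1 at chr2:125506439-125506688, both on the minus strand. Thbs2 is at chr17:14694263-14694512 and Timp4 at chr6:115252206-115252455, both on the minus strand, and Timp3 is at chr10:86300162-86300411 on the plus strand.
Lrrc15: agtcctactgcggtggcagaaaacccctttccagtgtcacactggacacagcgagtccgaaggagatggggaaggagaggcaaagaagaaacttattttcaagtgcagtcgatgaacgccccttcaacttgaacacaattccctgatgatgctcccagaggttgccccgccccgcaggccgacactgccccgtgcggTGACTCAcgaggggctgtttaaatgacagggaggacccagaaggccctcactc
Fbn1: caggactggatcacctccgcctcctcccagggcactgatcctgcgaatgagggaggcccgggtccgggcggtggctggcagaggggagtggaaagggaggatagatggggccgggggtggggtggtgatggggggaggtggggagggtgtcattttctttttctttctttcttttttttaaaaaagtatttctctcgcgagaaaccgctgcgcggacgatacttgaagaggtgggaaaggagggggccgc
Thbs2: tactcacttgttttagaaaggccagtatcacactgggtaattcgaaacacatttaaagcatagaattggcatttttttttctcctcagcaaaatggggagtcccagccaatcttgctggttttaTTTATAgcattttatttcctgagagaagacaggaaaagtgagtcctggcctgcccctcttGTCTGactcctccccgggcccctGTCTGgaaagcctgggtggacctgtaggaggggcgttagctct
Timp4: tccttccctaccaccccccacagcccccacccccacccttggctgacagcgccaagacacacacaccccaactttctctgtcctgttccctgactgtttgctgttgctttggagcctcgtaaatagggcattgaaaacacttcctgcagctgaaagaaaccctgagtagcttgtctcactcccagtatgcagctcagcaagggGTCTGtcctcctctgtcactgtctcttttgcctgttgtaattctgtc
Timp3: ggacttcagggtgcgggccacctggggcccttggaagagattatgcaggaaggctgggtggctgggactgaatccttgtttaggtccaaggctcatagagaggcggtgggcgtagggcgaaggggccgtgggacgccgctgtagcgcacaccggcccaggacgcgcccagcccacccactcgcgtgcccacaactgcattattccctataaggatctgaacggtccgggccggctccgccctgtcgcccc
The Lrrc15 window held 1 AP-1 match, TGACTCA, from -53 to -47 relative to the start site. The Thbs2 window held GTCTG from -66 and from -43 and TTTATA from -126, and the Timp4 window held GTCTG from -47. The Fbn1 and Timp3 windows held none of the 4. Over all 32851 windows of this length, 42.2% held CAGAC, 6.75% TGANTCA, 12.6% CATTCC and 12.4% TATAAA. The 37 matrix genes found in that table have 45 windows, some genes having several, and 44.4%, 6.67%, 8.89% and 15.6% of these held them. A match describes the letters in this window and no more.

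Lists of other matrix-related genes are read against the 10.4% of all genes that were higher with null virus and the 11.9% that were lower. A list of 16 other genes of collagen crosslinking and modification holds enzymes and also proteins that are not enzymes. Of its 13 tested genes, 6 were lower and 1 higher (53.8% passed, against 22.3% of all genes). The list's lowest adjusted p-values were those of Plod1, a lysyl hydroxylase (log2 -0.68), P4ha1, a prolyl hydroxylase (log2 -1.21), and Pcolce, an enhancer of procollagen cutting that is also among the fibroblast markers (log2 -0.82). Of 9 other matricellular genes, 2 rose (22.2%), Spock2, a matrix proteoglycan, at log2 2.34 and Ctgf, a connective tissue growth factor, at log2 1.69. Of 19 other matrix proteases and inhibitors, 3 rose and 3 fell (31.6%), with the protease Htra1 at log2 -0.68, Mmp15 at -0.98 and the lysosomal protease Ctsl at 0.57. TGF-beta receptors, SMADs and regulators had 3 higher and 2 lower of 18 (27.8%), Smad7, the inhibitory SMAD, at log2 0.79, Itgb5 at 0.42 and Lrrc32, which displays latent TGF-beta, at 0.58. A list of laminin and basement membrane receptors that also holds Dmd, dystrophin, had 1 higher and 2 lower of 8 (37.5%). Bcam was at log2 0.48, Dag1, dystroglycan, at -0.60 and Dmd at -0.59. Ecm2 was lower among 3 other small proteoglycans (log2 -0.41), and none of 3 other laminin chains or 6 other elastic fibre genes passed.

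Cell type markers differed between the same groups. Over 15 fibroblast markers the summed level was 306 to 390 in control, 435 to 448 with null virus and 411 to 465 with USP28 virus. Much of that sum was Gsn, at 111 to 123, 185 to 212 and 190 to 221 in these groups. Of the log2 differences between null virus and control, 8 were positive and 6 negative. With null virus 3 of 14 tested fibroblast markers were higher and 3 lower than control, where 10.4% and 11.9% of all genes were. Dpep1 and Gsn were higher, at log2 1.26 and 0.76, and Pi16 was lower, at log2 -1.09. Endothelial markers summed to 181 to 202 in control, 338 to 429 with null virus and 285 to 322 with USP28 virus, and 6 of 13 were higher with null virus. Much of that sum was Fabp4, at 68.3 to 101, 183 to 304 and 146 to 166 in these groups. Of the 13 log2 differences between null virus and control, 10 were positive and 3 negative. Cardiomyocyte markers summed to 34100 to 38200, 27900 to 43700 and 31000 to 34800, with 4 of 12 lower. The 43700 was that of null-virus replicate 1, with 29900 and 27900 in replicates 2 and 3. Its markers went both ways, with Tnnc1 at 4650 against 2210 and 1970, and Ttn at 11.9 against 19.7 and 19.9. Macrophage markers summed to 36.5 to 45.2, 27.8 to 33.7 and 27.1 to 33.0, with 3 of 9 lower. Myofibroblast markers summed to 45.2 to 64.0, 40.8 to 54.8 and 44.6 to 51.7, with 1 of 4 lower. Pericyte and smooth muscle markers summed to 201 to 231, 197 to 271 and 259 to 292, with 3 of 10 higher and 1 lower. The sums of these lists overlapped between control and null virus. Epicardial, adipocyte and Schwann cell lists summed to at most 1.02, 0.358 and 3.64, and each of the 6 adipocyte markers was at 0 in at least 1 library. The part of these markers in the matrix genes' differences was not tested.

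USP28 virus against null virus compares db/db hearts that differ by label in USP28 alone. Lum, Loxl2 and Lrrc15 were higher with USP28 virus, and no matrix gene passed in the lower direction. Lum was at a mean of 3.67 ± 0.441 against 1.78 ± 0.0934 (SD, n = 3; log2 1.0, SE 0.137, 95% interval 0.69 to 1.31, adjusted p = 0.0266). Loxl2 was at 2.01 ± 0.143 against 0.891 ± 0.209 (log2 1.11, SE 0.166, 95% interval 0.73 to 1.49, adjusted p = 0.0363). Lrrc15 was at 2.41 ± 0.393 against 1.02 ± 0.195 (log2 1.18, SE 0.195, 95% interval 0.73 to 1.62, adjusted p = 0.0477). In each of them all 3 USP28-virus libraries were above all 3 null-virus libraries. These 3 of 52 genes were 5.77% of those tested, where 0.574% of all genes passed, 0.347% higher and 0.227% lower. At an unadjusted p under 0.05 there were 20 of the 52 (38.5%), against 16.7% of all genes, and groups did not overlap for 25 of 52 (48.1%), 23 of them higher, against 23.5% of all genes. The median log2 difference was 0.298 over the 52 genes and 0.006 over all genes, and 0.172 over the 52 without null-virus replicate 1.

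None of the 3 calls held in each of 18 other settings. Lum passed in 10 of them, Loxl2 in 6 and Lrrc15 in 6. Over all 18, passed or not, their log2 differences were 0.74 to 1.09, 0.67 to 1.27 and 0.76 to 1.29. No matrix gene passed without any single USP28-virus library, without null-virus replicate 2 or 3, or without control replicate 2. In each of those fits 0 of all genes passed. Without control replicate 1 or 3, 1 matrix gene passed (2.0% and 1.96%, against 0.143% and 0.0787% of all genes). Without null-virus replicate 1, the library that stands apart, 9 passed, all higher (17.3%, against 6.71% of all genes in that fit). Both comparisons above use the same null-virus libraries, which were the lowest for these 3 genes, so their opposite signs are not independent.

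Other matrix genes were higher with USP28 virus without passing. Ltbp4 was at 9.13 ± 0.410 against 5.67 ± 0.933, Lama4 at 4.07 ± 0.285 against 2.66 ± 0.303, and Fbn1 at 2.74 ± 0.358 against 1.64 ± 0.167, with no overlap in any of them. Their log2 differences were 0.69, 0.60 and 0.71, with adjusted p of 0.0650, 0.0672 and 0.0814 in limma. These 3 passed without null-virus replicate 1 and when limma voom was run on the recovered reads. Lamc1, Nid1, Nid2 and Hspg2 had log2 differences of 0.58, 0.50, 0.79 and 0.44, and none passed. Without null-virus replicate 1 these were 0.37, 0.28, 0.61 and 0.28, and Lamc1 passed (adjusted p = 0.0268). Sparcl1 was at 258 ± 12 against 187 ± 34.8 and Mmp2 at 8.29 ± 0.554 against 5.98 ± 0.620 (log2 0.48 and 0.47, adjusted p = 0.162 and 0.159). None of the 5 genes that were higher in db/db hearts with null virus than in control passed between the viruses. Timp3 had a log2 difference of 0.02 (95% interval -0.29 to 0.33), Thbs2 -0.12 (-0.74 to 0.50) and Fbln5 0.01 (-0.25 to 0.26). Timp4 had -0.23 (-0.58 to 0.13), with no overlap between the virus groups, and Lamb2 -0.21 (-0.46 to 0.04), and -0.31 without null-virus replicate 1 (adjusted p = 0.053). Mfap5 and Vcan were at 0.05 and 0.10, with intervals of -0.37 to 0.48 and -0.47 to 0.67. In all, 15 of the 52 differences were negative and none of these passed. The lowest were those of Timp1, Thbs1, Thbs4 and Eln, at log2 -0.53, -0.46, -0.37 and -0.36, and all 52 lay between -0.53 and 1.18. Of 79 tested genes in the lists of other matrix-related genes named above, 0 passed in this comparison, with 19 at an unadjusted p under 0.05 (24.1%, against 16.7% of all genes) and 1 past the threshold in limma voom on the recovered reads. Of 71 tested marker genes 0 passed, with 15 at an unadjusted p under 0.05 (21.1%) and 2 past it in limma voom.

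**Figure D5:**
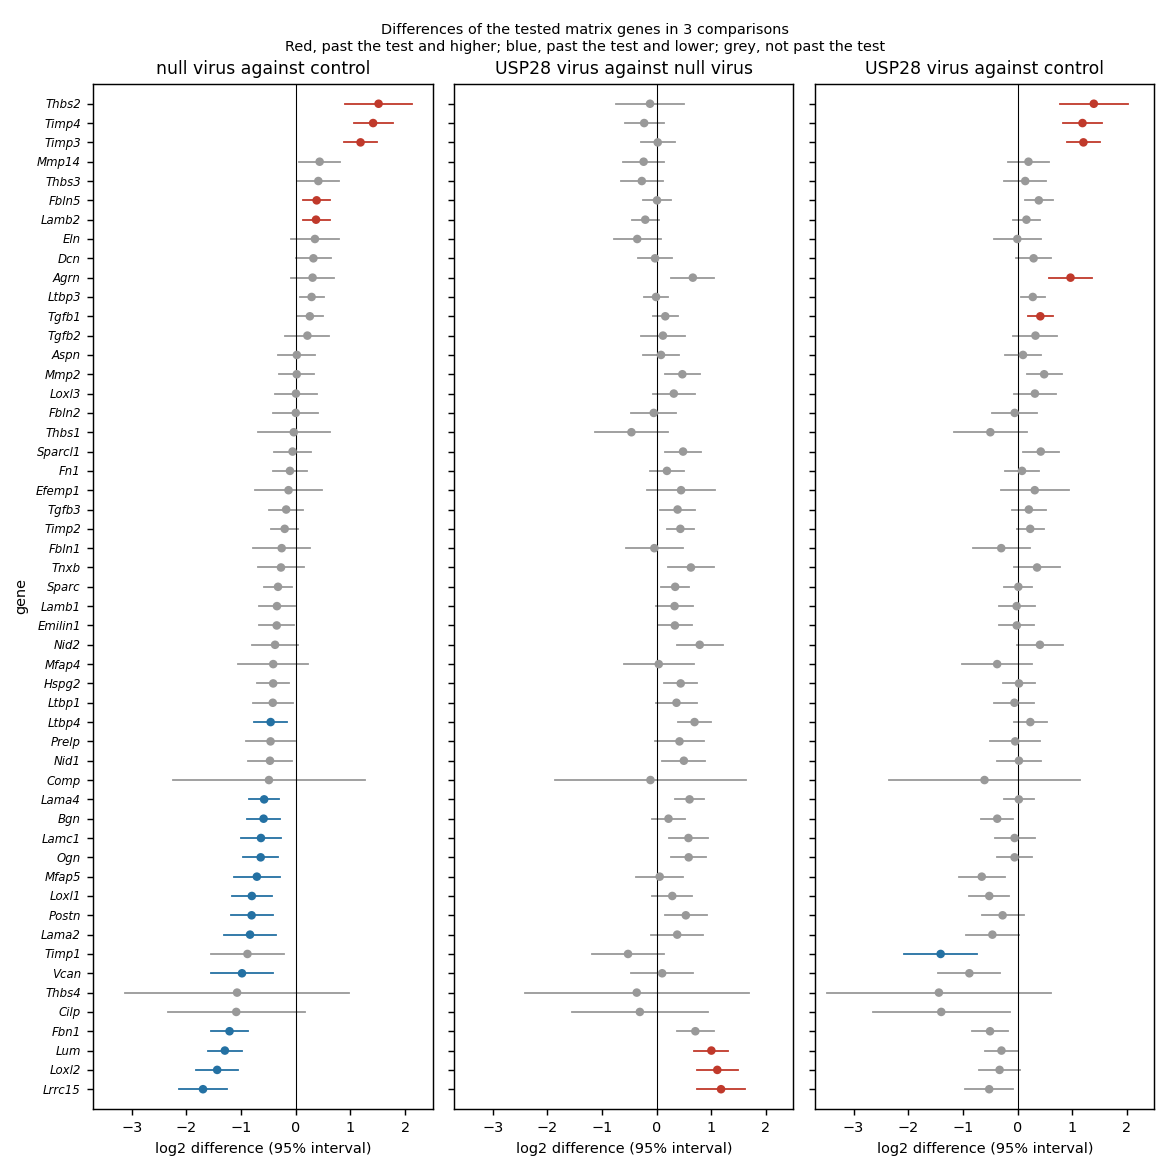
Log2 differences (x axis) with 95% intervals for the 52 tested matrix genes (y axis, ordered by null virus against control) in the 3 comparisons: red passed and higher, blue passed and lower, grey did not pass. Lum, Loxl2 and Lrrc15 are at the negative end on the left and are the 3 red points in the middle panel, while Timp3, Timp4 and Thbs2 are red on the left and on the right.

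USP28 virus against control compares the USP28-virus hearts with wild type. Higher were Timp3, Timp4, Thbs2, Agrn and Tgfb1, and Timp1 was lower. Of these, Agrn, Tgfb1 and Timp1 had not passed between null virus and control, and the difference between those comparisons is that of the viruses, which did not pass for any of them. That makes 6 of 52 genes (11.5%), where 11.9% of all genes passed, 5.73% higher and 6.15% lower, a share near that of all genes. Groups did not overlap for 24 of 52 (46.2%), against 45.9% of all genes, and the median log2 difference was 0.016, against 0.011. Timp3 and Timp4 were higher at log2 1.20 (SE 0.135, adjusted p = 0.00293) and 1.18 (SE 0.156, adjusted p = 0.0045), and these 2 calls held in all 18 other settings. Syn3, which overlaps Timp3, was higher too (log2 1.21, adjusted p = 0.00293). Thbs2 was higher at log2 1.39 (SE 0.272, adjusted p = 0.0162), and up to 0.0748 where control replicate 2 or 3 or USP28-virus replicate 1 or 2 was left out.

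Agrn (chromosome 4, 156165290 to 156197488) was at 3.08, 2.54 and 2.40 in control, at 2.5, 3.57 and 4.07 with null virus, and at 5.34, 5.25 and 5.29 with USP28 virus. The USP28-virus libraries were the 3 highest, and control and null virus overlapped. Agrn was higher than control at log2 0.97 (SE 0.173, adjusted p = 0.0122), and up to 0.062 without control replicate 2 or 3 or USP28-virus replicate 1. Against null virus its log2 difference of 0.66 did not pass (95% interval 0.27 to 1.05, adjusted p = 0.125). Timp1 fell by 1.41 on the log2 scale from control (adjusted p = 0.0197, up to 0.079 without control replicate 1 or 2 or USP28-virus replicate 2 or 3). Tgfb1 rose by 0.41 (adjusted p = 0.0344). It passed in 8 of 18 other settings, and not without any 1 control or USP28-virus library or null-virus replicate 2 (adjusted p up to 0.116). The genes lowest with null virus did not pass here, with Lum at log2 -0.30 (95% interval -0.61 to 0.01), Loxl2 at -0.33 (-0.71 to 0.05), Lrrc15 at -0.52 (-0.97 to -0.08) and Fbn1 at -0.51 (-0.84 to -0.17). Loxl1 was at -0.52 (adjusted p = 0.0717), Mfap5 at -0.66 (0.0544) and Vcan at -0.88 (0.0536). The laminin and perlecan genes Lama4, Lamc1, Lamb1, Nid1 and Hspg2 had log2 differences of -0.06 to 0.02, with 95% intervals within -0.42 to 0.42. Lama2 was at -0.46 (-0.94 to 0.02), below control in every library, and Nid2 at 0.41 (-0.02 to 0.83) and Lamb2 at 0.16 (-0.09 to 0.41), above control in every library, and none of the 3 passed. Without null-virus replicate 1, which enters the shared estimate of spread, 18 matrix genes passed in place of 6 (34.6%, against 29.7% of all genes in that fit).

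Among the other lists, where 5.73% of all genes were higher and 6.15% lower, P4ha1, Plod1 and P4ha2, another prolyl hydroxylase, were lower than control with USP28 virus, at log2 -1.40, -0.56 and -0.52, and no gene of that list was higher. Spock2 was higher at log2 1.80. Of 18 genes of TGF-beta signalling, 4 were higher and 2 lower, with the lowest adjusted p-values for Lrrc32 (log2 0.63), Itgb5 (log2 0.38) and Smurf2, a ubiquitin ligase of SMADs (log2 -0.62). Of 19 proteases and inhibitors, 2 were higher and 2 lower, led by Adamts1 (log2 0.83), Adam17 (log2 -0.77) and Htra1 (log2 -0.40). Dag1 was lower (log2 -0.57). Against the same shares of all genes, 5 of 13 endothelial markers and 3 of 10 pericyte and smooth muscle markers were higher than control, 3 of 14 fibroblast markers were higher and 1 lower, and 2 of 12 cardiomyocyte markers were lower. Their part in the matrix genes' differences was not tested.

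The 5 genes under the filter were measured on few reads. Besides Lox they were Ltbp2, Tnc, Cthrc1 and Fap. Ltbp2, a microfibril protein, had 270, 131 and 135 reads in the control libraries, with 10, 26 and 74 for null virus and 102, 46 and 46 for USP28 virus. At 0.589, 0.377 and 0.323 scaled RPKM, control was above every db/db library, and the virus groups overlapped. Tnc, a tenascin of wound repair, had 8 to 68 reads. Its scaled RPKM was lower in every null-virus library than in control, and the USP28-virus libraries overlapped each of these groups. Cthrc1, a protein of activated fibroblasts, had 0 to 6 reads. Cthrc1 was at 0, 0 and 1 reads with USP28 virus and 2 to 6 in the other 6 libraries, where a count of 0 allows up to 3 reads. Fap, a serine protease of activated fibroblasts, was at 0.363, 0.258 and 0.249 in control, at 0.382, 0.364 and 0.320 with null virus, and at 0.592, 0.454 and 0.381 with USP28 virus. Control and null virus overlapped, as did the virus groups, and none of the 5 was tested.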

How the data were processed

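Polyadenylated RNA of 9 left ventricle samples was made into directional libraries and sequenced from both ends, per the labels' protocols. HISAT2 and DESeq2 are named, per the submitters' processing notes, with no role or version, and so is GRCh38, which is human. Gene symbols are those of mouse, and 25445 of 30128 genes (48 of the 57) have spans identical to GENCODE M21 on GRCm38, so positions are given on that build. The sources used here do not give the counting program. The deposited table holds RPKM values by the authors, a unit read from the values: RPKM times gene length and a constant per library gave whole reads, within 0.01, for 99.9834% of values above 0. The depth followed from this, and 3 reads, the limit that a count of 0 allows, are 0.0531 to 0.0834 CPM by library, for counting error only. No libraries of a group were duplicates, since their reads differed by a chi-square per degree of freedom of 15 or more.

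Between libraries, RPKM was scaled by TMM (trimmed mean of M values, trimming 30% of ratios and 5% of levels). The 14104 genes that reached 0.5 RPKM in 3 or more libraries were tested on log2(scaled RPKM + 0.1), a scale that understates changes of low genes, in limma 3.58.1 (R 4.3.3; trended, robust prior). All 9 libraries entered 1 fit of 3 groups with no covariate. Benjamini-Hochberg adjustment was made separately for the 3 comparisons, and adjusted p under 0.05 passed. The code was tested on simulated data. Members, gene lists and marker lists were chosen with earlier results of these data known. Library values are given for genes past the threshold (at most the 8 of smallest adjusted p in a comparison), for at least 1 gene per role, and for a few more chosen after their values were seen (Vcan, Lox, Ltbp2, Fap and the overlapping genes). From each pathway list at most 3 genes past the threshold, by adjusted p, are named. Each of 18 alternatives changed 1 choice: scaling by median of ratios or by library totals, no filter or 1 RPKM, a pseudocount of 1 or 0.01, a fit of 2 groups alone, a block for replicate number, limma voom run on the reads recovered from RPKM, and 9 fits that each left out a library. Promoters are from RefSeq (GRCm38.p6). Figures used matplotlib 3.10.9 (Python 3.11.15, pandas 2.3.3, numpy 2.4.6).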

Additional observations from a re-analysis of the deposited data

How the results depend on the processing

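No difference of a matrix gene that passed in any setting changed its sign. The count of matrix genes past the threshold, 19 for null virus against control, was 11 in a fit of the 2 groups alone and 9 to 26 with 1 library left out. For USP28 virus against null virus, 3 became 1 with no filter, 0 with the 2 groups alone, 6 in limma voom on recovered reads, and 0 to 9 with 1 library left out. For USP28 virus against control, 6 became 16 with the 2 groups alone (30.8%, against 27.6% of all genes). In limma voom it was 12 (23.1%, against 16.4%), and with 1 library left out 2 to 18. The 2 came without control replicate 2 (3.92%, against 3.47% of all genes) and the 18 without null-virus replicate 1 (34.6%, against 29.7%). The highest counts, 26, 9 and 18, all came without null-virus replicate 1. Beside the 0 for USP28 virus against null virus with 2 groups alone, 20 matrix genes and 1821 of all genes had an unadjusted p under 0.05. Over all genes, the same comparison gave 81 calls, 31 with library totals alone, 194 in limma voom, 41 with no filter, 0 with 2 groups alone or with the block, and 0 to 939 with 1 library left out. With the replicate number as a block, the counts were 18, 0 and 5 in the 3 comparisons. These were 34.6%, 0% and 9.62% of the tested matrix genes, against 19.6%, 0% and 9.06% of all genes. Samples that share a number showed no shared shift, with correlations of their deviations of -0.029 to 0.06. With 3 libraries a group, that cannot settle whether they were paired. Scaling by library totals moved the median log2 difference of all genes by at most 0.08. The causes of these changes were not tested. With 3 libraries a group, and 1 null-virus library apart from its group, small differences could not be resolved.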
